A study of Mus musculus with 6 samples.

Results

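The nuclear genes of oxidative phosphorylation encode most subunits of the 5 enzyme complexes of the mitochondrial inner membrane and many of the factors that assemble them. Here they were taken as every gene of the deposited expression table whose symbol starts with Nduf, Uqcr or Atp5, starts with Cox and a digit, or is Sdha, Sdhb, Sdhc, Sdhd or Cyc1. This gave 104 of the 23518 genes of the table: 45 belong to complex I, 4 to complex II, 9 to complex III, 29 to complex IV and 17 to complex V.

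Ear skin of mice was sampled on day 1 of imiquimod, which activates Toll-like receptors and is applied to mice to produce inflammation resembling psoriasis, and its RNA was sequenced in 3 wild-type (WT) and 3 HdR libraries. Each ear received 10 mg of cream with 5% imiquimod. HdR is the label of mice whose HOIL1, encoded by Rbck1, lacks the RING1 domain. HOIL1 is a component of the linear ubiquitin chain assembly complex. The imiquimod cream is shared by both genotypes, so the comparison of HdR with WT concerns treated skin only. Strain, age, sex and the cells that carry the altered allele are not stated in the labels, nor whether a library holds 1 mouse or a pool, and p-values therefore measure the spread between these libraries.

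Complex I takes electrons from NADH and complex II takes them from succinate. Complex III passes them from ubiquinol to cytochrome c and complex IV passes them on to oxygen, and complexes I, III and IV pump protons as they do so. Complex V, the ATP synthase, lets the protons flow back and makes ATP. Whole ear skin mixes keratinocytes with muscle, fat and immune cells that differ widely in mitochondrial content, and in such bulk tissue a change in the number of cells of a type cannot be told apart from a change in RNA per cell.

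Levels are given as summed aligned bases per gene per Mb of scaled library (bases per Mb). Changes are log2(HdR) minus log2(WT) of bases per Mb plus 1, with the standard error (SE) of the limma fit, and a gene is called higher or lower where its Benjamini-Hochberg adjusted p over all 15049 tested genes was under 0.05. Because a longer transcript collects more bases, levels of different genes are compared only per kb of principal transcript. Total coverage was 4433 to 5966 Mb per library. Rbck1 itself stood at 66.6, 55.1 and 64.1 bases per Mb in WT replicates 1 to 3 and at 23.9, 13.0 and 19.7 in HdR replicates 1 to 3, a change of -1.70 ± 0.22 (SE; limma adjusted p = 0.00438). The Rbck1 levels of the genotypes did not overlap.

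The libraries were not evenly spaced within their genotypes. HdR replicate 2 held the highest value for 87 of the 102 tested oxidative phosphorylation genes and WT replicate 3 the lowest for 70. The median deviation of these genes from their own mean, on the log2 scale, was -0.51, -0.18 and -0.58 in WT replicates 1 to 3 and 0.36, 0.80 and 0.19 in HdR replicates 1 to 3. The libraries also differed in how coverage depended on transcript length. Over all tested genes, the log2 deviation moved by 0.199, 0.0397 and 0.26 per doubling of length in WT replicates 1 to 3 and by -0.132, -0.281 and -0.0857 in HdR replicates 1 to 3, so short transcripts stood higher in every HdR library. Most oxidative phosphorylation genes have short transcripts (median 873 nt), and so the counts of the groups are also given with a fitted length trend removed from each library. The trend was fitted on the longest transcript and, as an alternative added after seeing the data, on the principal transcript, because the longest annotated model of some small subunits is far longer than their principal one (6310 nt for Atp5l). Whether the length trend arose in the tissue or in the preparation of the RNA was not tested.

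Promoters are shown here because these genes moved largely together and their promoters are known for sites of the factors NRF1, GABP (an ETS factor) and YY1. RefSeq promoters (GRCm38.p6, 250 bases before to 50 bases after the start) were found for 81 of the 104 genes, as 87 promoters, and were compared with all 32851 promoters of the same length. In all, 9 letter strings were searched on both strands. The NRF1 string, GCGCA and GCGC with any base between them, stood in 23.0% of the member promoters and in 4.6% of all promoters. The ETS string CCGGAAG stood in 27.6% against 8.86%, and the YY1 string AAGATGGC in 13.8% against 2.75%. TATAAA stood in 10.3% against 13.6%. The other 5 strings overlap these or were rarer: the NRF1 string with T as the free base (8.05% against 0.971%), the YY1 string followed by GGC (6.9% against 0.633%), TGACGTCA (4.6% against 1.79%), TGACGT (11.5% against 7.51%) and TCAAGGTCA (2.3% against 0.423%). TGACGTCA contains TGACGT, and these letters are known for CREB-type factors, while TCAAGGTCA is known for oestrogen-related receptors.

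Genes called higher and other genes both held these strings. The NRF1 string stood in 14 of the 62 genes called higher that had a promoter entry and in 5 of the other 19. The ETS string stood in 16 of 62 and 7 of 19, and the YY1 string in 10 of 62 and 2 of 19. Upstream bases of 4 genes, chosen after their values and matches were seen, show both kinds: Ndufb4 and Atp5e rose and hold a match, Cox7a1 rose and Cox8a was not called. Capitals mark a match, and each stretch ends where the annotated exon begins. The stretches are chr16:37654454-37654618 (minus strand) for Ndufb4, chr2:174464106-174464351 (minus strand) for Atp5e, chr7:30183921-30184143 (plus strand) for Cox7a1 and chr19:7217617-7217866 (minus strand) for Cox8a.
Ndufb4: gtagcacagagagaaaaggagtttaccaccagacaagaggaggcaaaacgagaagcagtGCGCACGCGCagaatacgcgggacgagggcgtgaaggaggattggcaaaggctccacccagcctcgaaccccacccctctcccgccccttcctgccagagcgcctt
Atp5e: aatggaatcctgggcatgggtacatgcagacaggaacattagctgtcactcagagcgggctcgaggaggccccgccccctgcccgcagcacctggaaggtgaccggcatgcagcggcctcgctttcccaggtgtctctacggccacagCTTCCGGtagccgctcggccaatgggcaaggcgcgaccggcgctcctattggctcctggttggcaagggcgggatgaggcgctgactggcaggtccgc
Cox7a1: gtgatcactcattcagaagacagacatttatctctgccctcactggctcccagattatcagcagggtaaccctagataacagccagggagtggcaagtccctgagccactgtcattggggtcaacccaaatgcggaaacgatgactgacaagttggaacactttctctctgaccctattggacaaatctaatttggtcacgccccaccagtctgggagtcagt
Cox8a: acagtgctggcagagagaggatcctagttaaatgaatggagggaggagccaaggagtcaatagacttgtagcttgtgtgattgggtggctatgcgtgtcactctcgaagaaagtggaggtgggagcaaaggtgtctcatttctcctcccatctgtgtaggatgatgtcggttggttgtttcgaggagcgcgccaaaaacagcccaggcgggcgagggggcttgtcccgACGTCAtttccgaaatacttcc
The capitals in Ndufb4 are the NRF1 string, beginning 191 bases before the RefSeq start. Those in Atp5e are the ETS string on the opposite strand, 102 bases before the start, and those in Cox8a are TGACGT on the opposite strand, 22 bases before it. In Ndufb4, Atp5e and Cox7a1 the RefSeq start lies past the end of the printed stretch, beyond the point where the annotated exon begins. The searched window of Cox8a also holds the ETS string, across the end of the printed stretch and beyond it. None of the 9 strings was found in the Cox7a1 stretch, which says only that these letters are not in this window.

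Most oxidative phosphorylation genes were higher in HdR skin. Of the 104 genes, 102 passed the filter on low values and were tested; 75 were called higher, 2 were called lower and 25 were not called. Over all tested genes 12.7% were called higher and 17.9% lower. The median change was 0.91 over the 102 genes and -0.13 over all tested genes. In 89 of the 102 genes all HdR libraries lay above all WT libraries, which was so for 20.9% of all tested genes, and in 4 they lay below, against 30.7% of all. The 2 genes left out by the filter, Cox7b2 and Cox8c, are tissue-restricted complex IV genes that were listed at 0 in every WT library and reached at most 0.152 and 0.0538 bases per Mb in HdR.

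The size of this set of calls depended on the libraries and on transcript length. With the length trend removed, 47 genes were called higher on the longest transcript and 41 on the principal transcript, against 10.9% and 9.97% of all genes, and 2 were lower in both fits, against 8.48% and 7.9% of all. The median change fell to 0.47 and 0.42. Called higher without correction and under both length measures were 39 genes. When the correction kept each library's mean, the form that was run first, 38 (longest) and 32 (principal) genes were higher. Without WT replicate 1, only 4 genes were called higher (Ndufaf4, Cox4i2, Cox7a1 and Cox8b) although the median change was 0.87. Without WT replicate 3 the count was 37 and without HdR replicate 2 it was 45. In the fit blocked on replicate number, 84 were higher and 4 lower, against 18.3% and 27.2% of all genes. With the block and the length trend removed, 58 (longest) and 50 (principal) were higher. For this fit, the mean-kept form and the fits with a library left out, the share of all genes called is not given here. Whether the lower counts in those fits are particular to these genes was not tested.

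**Figure D1:**
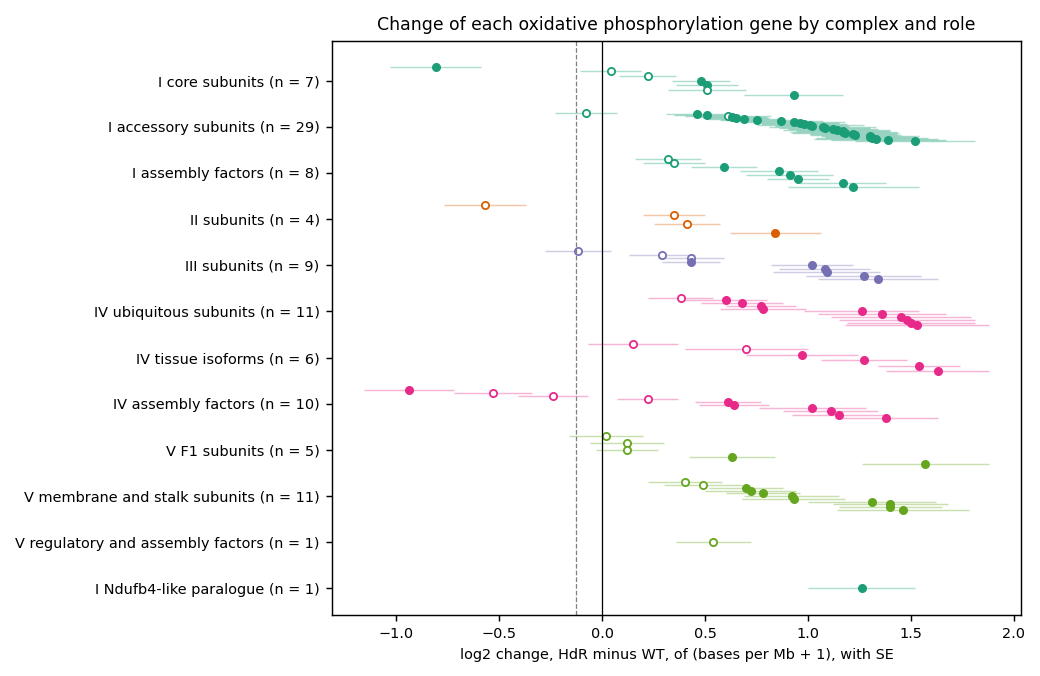
Change of each tested gene (HdR minus WT, log2 of bases per Mb plus 1, with SE) by complex and role; filled points have a limma adjusted p under 0.05, the dashed line is the median of all tested genes (-0.13), and n is the number tested. Points lie mostly between 0.4 and 1.6, with Ndufs1 (-0.81) and Cox18 (-0.94) the filled points below 0.

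**Figure D2:**
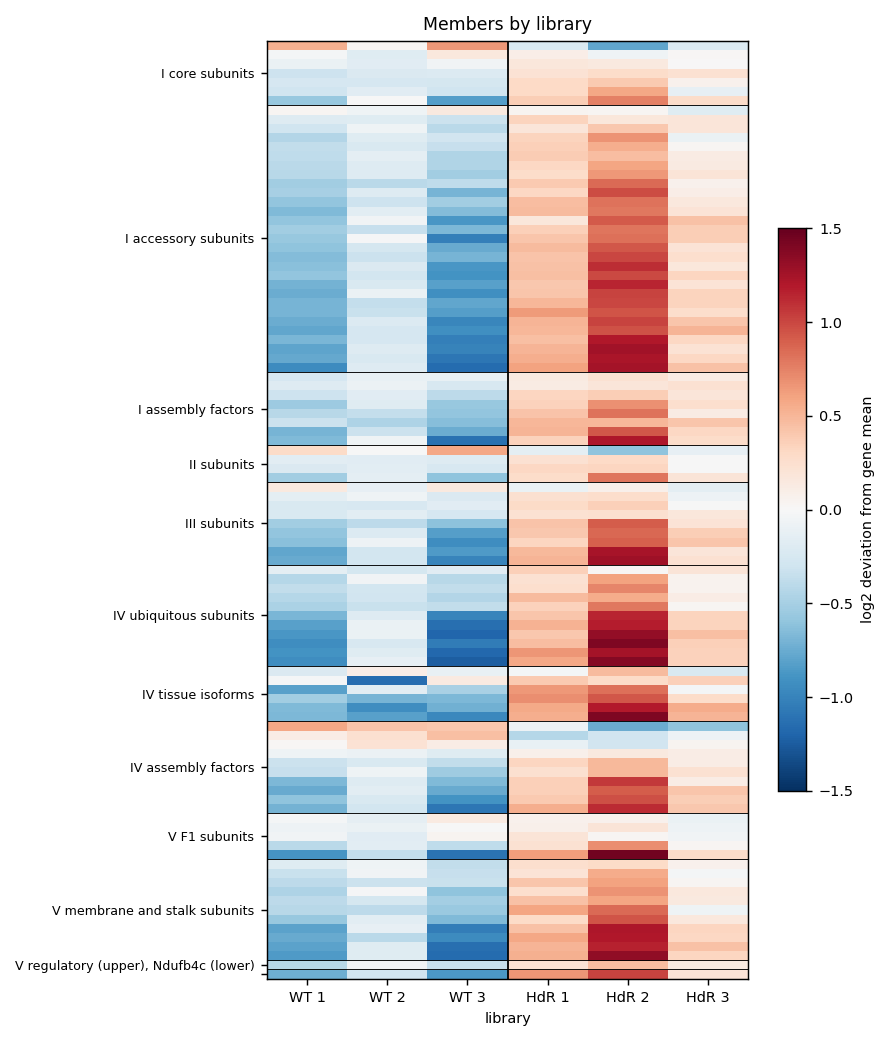
Deviation of each tested gene from its mean over the 6 libraries (log2 scale, colour), 1 row per gene, ordered by group and by change, with WT left and HdR right of the vertical line. HdR replicate 2 is the darkest red column (median 0.80), and WT replicates 1 and 3 are bluer (medians -0.51 and -0.58) than WT replicate 2 (-0.18).

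Complex I has a catalytic core, which carries the flavin and iron-sulfur clusters, and a large shell of accessory subunits. The 7 nuclear core subunits moved in both directions: 3 were called higher, 1 lower and 3 were not called, with a median of 0.48. Ndufv2, which holds an iron-sulfur cluster of the NADH-oxidising module, stood at 229, 338 and 192 bases per Mb in WT replicates 1 to 3 and 439, 575 and 410 in HdR replicates 1 to 3. Its HdR levels all lay above its WT levels, a rise of 0.93 ± 0.24 (SE, adjusted p = 0.0247). It was the 1 core subunit that stayed called higher with the length trend removed (0.67 on the longest and 0.75 on the principal transcript).

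Ndufs1 went the other way. Ndufs1, the largest core subunit and the carrier of several iron-sulfur clusters, was read at 123, 86.5 and 133 bases per Mb in WT and 72.0, 48.9 and 73.2 in HdR replicates 1 to 3. Every HdR library was below every WT library, and the change was -0.81 ± 0.22 (SE, adjusted p = 0.0287). It stayed called under both length measures (-0.77 and -0.66), but it was called in only 2 of the 6 fits that left out a library. Ndufs1 lies at chr1:63143596-63176833 on the minus strand (GRCm38, GENCODE M21).

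Ndufs7, which carries the last iron-sulfur cluster before ubiquinone, rose by 0.51 ± 0.15 (SE, adjusted p = 0.0342). With the length trend removed it lost the call and was at 0.01 on the longest and -0.03 on the principal transcript. Ndufv1, the flavin-bearing subunit, was level: 86.4, 77.5 and 98.3 bases per Mb in WT and 94.2, 84.3 and 89.5 in HdR replicates 1 to 3, with overlapping genotypes and a change of 0.04 ± 0.15 (SE, adjusted p = 0.865). Ndufs3 (0.22) and Ndufs8 (0.51) were not called; with the replicate block Ndufs8 was (adjusted p = 0.0249). On the length-corrected scales Ndufv1 was below 0 (-0.23 and -0.16), again without a call.

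Accessory subunits of complex I were nearly all higher. Of 29 tested, 27 were called higher, none lower, and the median change was 1.07. The largest rise was that of Ndufb4, a membrane-arm subunit, at 54.6, 92.1 and 47.0 bases per Mb in WT and 161, 251 and 143 in HdR replicates 1 to 3. Its genotypes did not overlap, and it rose 2.87-fold (1.52 ± 0.29 on the log2 scale, SE, adjusted p = 0.0122). Ndufb6, also in the membrane arm, stood at 87.7, 128 and 70.1 in WT and 220, 352 and 187 in HdR replicates 1 to 3 and rose by 1.39 ± 0.28 (adjusted p = 0.0139). Ndufc1, a small membrane-arm subunit, went from 50.0, 76.3 and 43.2 to 125, 211 and 102 and rose by 1.33 ± 0.30 (adjusted p = 0.0163). In all 3, HdR replicate 2 was highest and WT replicate 2 was the highest of the WT libraries.

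With the length trend removed, 20 accessory subunits on the longest transcript and 16 on the principal transcript stayed higher, and none was lower. Called under both length measures were 16, among them Ndufb4 (1.02 and 1.03), Ndufb6 (0.78 and 0.76), Ndufc1 (0.92 and 0.74), Ndufab1, the mitochondrial acyl carrier protein (1.19 and 1.08), and Ndufs4, a subunit of the NADH-oxidising arm (0.82 and 0.89). The length measure decided single values: Ndufb7 was at 1.29 on the longest transcript and at 0.31 on the principal transcript (adjusted p = 0.014 and 0.113), and Ndufb5 at 0.60 and 0.01. Without WT replicate 1 no accessory subunit was called, with a median of 1.05, and without WT replicate 3 and HdR replicate 2 the counts were 17 and 20.

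Ndufa9 and Ndufa11 were the accessory subunits not called, and Ndufa11 was called with the replicate block (adjusted p = 0.0188). Ndufa9, which lies at the junction of the peripheral and membrane arms, stood at 102, 96.1 and 111 in WT and 103, 102 and 88.2 in HdR replicates 1 to 3. It overlapped between genotypes (-0.08 ± 0.15, SE, adjusted p = 0.687), and it was the 1 accessory subunit that did so. With the replicate block and the trend on the longest transcript removed, Ndufa9 was called lower (-0.42, adjusted p = 0.0426). Ndufb4c, a gene model of 390 nt that resembles Ndufb4, rose from 0.986, 1.72 and 0.818 to 4.26, 5.70 and 2.81 bases per Mb (1.26 ± 0.26, adjusted p = 0.0138). Its reads may belong to Ndufb4, which cannot be told apart here, since how shared reads were counted is not given in the sources used here.

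Assembly factors of complex I build the enzyme and are absent from the finished complex. Of 8 tested, 6 were called higher and none lower, with a median of 0.88. After removal of the length trend on the longest and the principal transcript, 2 and 3 were higher (medians 0.44 and 0.46), and without WT replicates 1 and 3 the counts were 1 and 2. Ndufaf4 stood at 38.4, 34.8 and 30.8 bases per Mb in WT and 68.6, 68.8 and 65.0 in HdR replicates 1 to 3. Unlike most other members, HdR replicate 2 did not stand out, and the rise was 0.95 ± 0.15 (SE, adjusted p = 0.008). It was 1 of 4 genes called in all 6 fits that left out a library, was called under both length measures (1.18 and 1.27), and was the 1 gene of the set still called without WT replicate 1 and with the length trend removed (1.24, adjusted p = 0.0262). Ndufaf4 lies at chr4:24898083-24905001 on the plus strand, and its principal transcript, at 3632 nt, is the longest of complex I.

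Ndufaf2, a paralogue of the subunit Ndufa12, rose by 1.17 ± 0.21 (SE, adjusted p = 0.0105; 17.3 ± 3.04 in WT and 40.5 ± 9.44 in HdR, SD, n = 3) and stayed called under both length measures (1.13 and 0.54). Ndufaf8, a partner of the factor Ndufaf5, stood at 20.9, 32.2 and 15 in WT and 42.9, 79.5 and 40.9 in HdR replicates 1 to 3. It rose by 1.22 ± 0.32 (adjusted p = 0.0248), and lost the call when length was removed, though not with the replicate block added on the principal transcript (adjusted p = 0.0133). Ndufaf1, an early-acting factor, was at 13.6, 15.2 and 15.1 against 18.1, 19.4 and 18.0, without overlap but below the threshold for a call (0.32 ± 0.16, adjusted p = 0.134).

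Complex II, succinate dehydrogenase, is the complex that also serves the tricarboxylic acid cycle, and its 4 subunits disagreed in direction. Sdha, the flavin-bearing catalytic subunit, stood at 129, 105 and 158 bases per Mb in WT and 95.6, 69.3 and 97.1 in HdR replicates 1 to 3. All HdR libraries were below all WT libraries, but the change of -0.57 ± 0.20 (SE) was not called (adjusted p = 0.0595). With the replicate block Sdha was called lower (adjusted p = 0.00875). With the length trend removed it was not called (-0.48 longest and -0.36 principal, adjusted p = 0.0914 and 0.141). With block and length correction together, Sdha was called on the longest transcript (adjusted p = 0.0214) and not on the principal one (adjusted p = 0.053). Sdhb, the iron-sulfur subunit, stood at 165, 213 and 156 in WT and 287, 414 and 270 in HdR and rose by 0.84 ± 0.22 (adjusted p = 0.023). The 2 catalytic subunits of this complex, which sit together in the finished enzyme, thus lay on opposite sides of 0.

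The membrane anchors Sdhc (101, 105 and 99.7 in WT, 146, 147 and 117 in HdR) and Sdhd (101, 99.9 and 98.1 in WT, 132, 138 and 112 in HdR) had no overlap between genotypes but were not called (0.41 ± 0.16 and 0.35 ± 0.15, SE, adjusted p = 0.0716 and 0.101). With the replicate block, Sdhc was called higher (adjusted p = 0.0331) and Sdhd was not (adjusted p = 0.0542). Which subunit of complex II was called under the length correction depended on the length measure. Sdhc was higher on the longest (0.56, adjusted p = 0.0346) and the principal transcript (0.67, adjusted p = 0.0273). Sdhb was not (0.43 and 0.42, adjusted p = 0.069 and 0.0684), except with the replicate block on the principal transcript (adjusted p = 0.0303). On the median coding length Sdhb stayed called (0.70, adjusted p = 0.0313) and Sdhc was not (0.16, adjusted p = 0.377).

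Complex III, the cytochrome bc1 complex, divided by subunit size. Its 5 small subunits were all called higher, with a median of 1.09, while of the 4 large ones only Uqcrfs1 was; this division was made after the values were seen. Of all 9 genes 6 were higher, against 3 on the longest and 1 on the principal transcript with the length trend removed (medians 1.02, 0.37 and 0.31) and none without WT replicate 1. Uqcrq, a small subunit beside cytochrome b, stood at 193, 270 and 164 bases per Mb in WT and 465, 790 and 384 in HdR replicates 1 to 3. It rose by 1.34 ± 0.29 (SE, adjusted p = 0.0156) and was the only complex III gene called under both length measures without the block (1.03 and 0.84); with the block on the principal transcript, Uqcr11 and Uqcrh were called too (adjusted p = 0.0197 and 0.0348). Uqcr11 (130 ± 29.7 in WT, 327 ± 130 in HdR, SD, n = 3) rose by 1.27 ± 0.28 (adjusted p = 0.0159) and Uqcrb (210 ± 65.7 and 442 ± 100) by 1.09 ± 0.26 (adjusted p = 0.0184). Both had HdR replicate 2 as the highest library.

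Among the electron-carrying subunits of complex III, changes were small. Uqcrfs1, the Rieske iron-sulfur protein, was at 128, 134 and 125 in WT and 175, 177 and 169 in HdR replicates 1 to 3, with little spread in either genotype, and rose by 0.43 ± 0.14 (SE, adjusted p = 0.0479). Cyc1, cytochrome c1, was at 104, 103 and 108 against 149, 157 and 122 and was not called (0.43 ± 0.16, adjusted p = 0.0618), though it was with the replicate block (adjusted p = 0.0341). With the length trend removed neither was called. Uqcrc2, a core protein, overlapped between genotypes at 240, 199 and 241 in WT and 203, 228 and 195 in HdR (-0.12 ± 0.16, adjusted p = 0.594).

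Complex IV, cytochrome c oxidase, has ubiquitous nuclear subunits and isoforms that replace some of them in certain tissues. Of the 11 ubiquitous subunits, 10 were called higher, and the median of 1.26 was the highest of the groups with more than 1 gene. Cox6c stood at 334, 588 and 270 bases per Mb in WT and 956, 1656 and 809 in HdR replicates 1 to 3, a rise of 1.53 ± 0.35 (SE, adjusted p = 0.0172). Cox7b was at 237, 389 and 195 against 702, 1049 and 560 (1.5 ± 0.31, adjusted p = 0.0141). Cox4i1, an early-assembling subunit that binds adenine nucleotides, was at 342, 552 and 314 against 896, 1727 and 837 (1.48 ± 0.33, adjusted p = 0.0159). The genotypes did not overlap in any of the 11, and HdR replicate 2 was the highest library in Cox6c, Cox7b and Cox4i1.

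Per kb of principal transcript, Ndufa4 was the most abundant gene of the set in both genotypes (1181 ± 482 in WT and 3196 ± 1221 in HdR, bases per Mb per kb, SD, n = 3). Ndufa4 was named as a complex I subunit and is now placed in complex IV. It was followed by Cox6c (656 ± 278 in WT), Cox7c (540 ± 154), Cox4i1 (534 ± 172) and Atp5l (531 ± 184), which did not differ beyond their spread. With the length trend removed, 7 ubiquitous subunits on the longest and 6 on the principal transcript stayed higher, Cox4i1, Cox6c, Cox7a2, Cox7b, Cox7c and Ndufa4 under both. Cox6a1 and Cox6b1, called at 0.60 and 0.68 without correction, fell to -0.03 and 0.06 (longest) and to -0.07 and 0.03 (principal). Without WT replicate 1 none of the 11 was called, with a median of 1.23.

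Cox8a, the ubiquitous form of subunit 8, was the exception. It stood at 128, 118 and 126 bases per Mb in WT and 182, 143 and 162 in HdR replicates 1 to 3, a change of 0.38 ± 0.16 (SE, adjusted p = 0.0857), and it was called with the replicate block (adjusted p = 0.0359). Here HdR replicate 2 was the lowest HdR library. Cox8b, the form known from heart, skeletal muscle and brown fat, was at 37.3, 30.7 and 35.8 in WT and 88.5, 137 and 88.0 in HdR, a rise of 1.54 ± 0.20 (adjusted p = 0.00442). Cox8b was called in all 6 fits that left out a library and under both length measures (0.85 and 0.81).

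The other isoforms of muscle and fat behaved unevenly. Cox7a1, the heart and muscle form of subunit 7a, had the largest log2 change of the set with the pseudocount of 1 (the low Ndufb4c had the larger ratio of means, 3.62 against 3.33), from 26.3, 23.7 and 21.3 to 62.3, 114 and 60.7 bases per Mb (1.63 ± 0.25, SE, adjusted p = 0.007), and it was called in all 6 fits that left out a library and under both length measures (0.97 and 0.91). Cox6a2, the heart and muscle form of subunit 6a, stood at 34.4, 15.4 and 38.8 in WT and 46.6, 43.4 and 45.5 in HdR and was not called (0.70 ± 0.30, adjusted p = 0.104), though it was with the replicate block (adjusted p = 0.0404). WT replicate 2 was the low library there, and it was also the lowest in the summed skeletal muscle markers. Cox4i2, a lung-enriched and oxygen-responsive form of subunit 4, was at 3.95, 3.39 and 3.45 against 10.5, 12.6 and 7.59 and rose by 1.27 ± 0.21 (adjusted p = 0.00906). Ndufa4l2, an oxygen-responsive paralogue of Ndufa4, rose by 0.97 ± 0.27 (adjusted p = 0.0284) and lost the call under both length measures. Cox6b2, the testis form of subunit 6b, overlapped at 1.62, 2.25 and 1.82 against 1.99, 3.24 and 1.60 (0.15 ± 0.22, adjusted p = 0.612).

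Isoform shares compare 2 genes within a library and so do not depend on library scaling. They were not corrected for the length trend of each library, and paired genes can differ in length (360 nt for Cox8b and 550 nt for Cox8a). Of the summed Cox8a and Cox8b level per kb, Cox8b made up 30.8, 28.5 and 30.2% in WT replicates 1 to 3 and 42.6, 59.3 and 45.3% in HdR replicates 1 to 3. The mean share was 29.9 ± 1.21% in WT and 49.1 ± 9.0% in HdR (SD, n = 3), and the genotypes did not overlap. The exact two-sided permutation test gave p = 0.1, the smallest value that 3 against 3 libraries allow, and 0.3 after Benjamini-Hochberg adjustment over the 6 pairs compared. The Cox6b2 share went from 1.15 ± 0.152% to 0.829 ± 0.0975% (exact permutation p = 0.1, adjusted 0.3). Shares of Cox7a1 beside Cox7a2 (16.0 ± 4.36% and 18.7 ± 1.16%), Cox6a2 beside Cox6a1 (12.2 ± 5.74% and 12.2 ± 2.31%), Cox4i2 beside Cox4i1 (0.977 ± 0.302% and 0.96 ± 0.226%) and Ndufa4l2 beside Ndufa4 (0.794 ± 0.241% and 0.607 ± 0.192%) overlapped, with exact permutation p of 0.4, 1, 1 and 0.5. Cox7a1 and its ubiquitous partner Cox7a2 (224 ± 86.1 to 569 ± 185 bases per Mb) thus both rose, while in the Cox8 pair Cox8b was called and Cox8a, without the replicate block, was not.

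**Figure D3:**
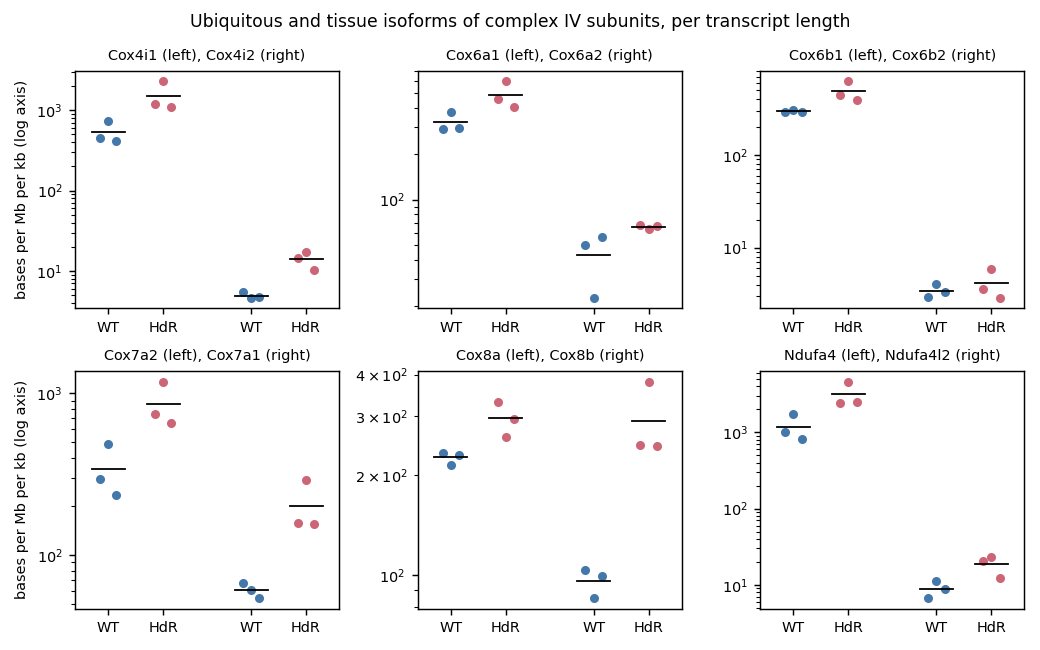
Level per kb of principal transcript (bases per Mb per kb, log axis) of 6 pairs of complex IV genes in each library (points) with the mean (bar); the ubiquitous gene is left and the tissue form right in each panel. Cox8b reaches the level of Cox8a in HdR (290 and 296) but not in WT (96.1 and 225).

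Assembly factors of complex IV moved in both directions. Of 10 tested, 6 were called higher, 1 lower and 3 were not called. Under either length measure 4 were higher and 1 lower (medians 0.28 and 0.30), and without WT replicate 1 none was called. Cox18, which inserts a domain of the mitochondrially encoded subunit COX2 into the inner membrane, stood at 8.35, 7.44 and 7.27 bases per Mb in WT and 4.95, 2.74 and 3.13 in HdR replicates 1 to 3. The genotypes did not overlap (-0.94 ± 0.22, SE, adjusted p = 0.0176), and with the length trend removed the change was larger (-1.32 and -1.28, adjusted p = 0.0149 and 0.0159). Cox18 (chr5:90214724-90224001, minus strand) was called in 4 of the 6 fits that left out a library. Cox10, which makes haem O, was at 7.71, 8.45 and 9.95 against 4.99, 5.53 and 6.62 and was not called (-0.53 ± 0.19, adjusted p = 0.0589), but was called lower with the replicate block (adjusted p = 0.0287). With the length trend removed Cox10 was not called (-0.43 longest and -0.32 principal, adjusted p = 0.121 and 0.236). Adding the block on the principal transcript gave no call either (adjusted p = 0.163).

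The copper chaperone Cox17 rose, from 34.0, 44.3 and 27.7 to 69.2, 103 and 67.9 (1.15 ± 0.23, adjusted p = 0.0129), and so did Cox16, which takes part in building the copper site of COX2 (25.3, 34.5 and 19.2 to 61.8, 92.2 and 55.7; 1.38 ± 0.25, adjusted p = 0.0115). Both stayed called under each length measure, Cox17 at 1.40 and 1.12 and Cox16 at 1.22 and 1.33. Cox7a2l, which holds complexes III and IV together in supercomplexes, stood at 191, 288 and 190 in WT and 412, 603 and 429 in HdR (1.11 ± 0.23, adjusted p = 0.0142; 0.66 under both length measures). Cox11, another copper factor, was not called (0.22 ± 0.15, adjusted p = 0.267), and was at -0.20 and -0.16 with the length trend removed. COX18 and COX16 both act on the same mitochondrial subunit, and their transcripts lay on opposite sides of 0.

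Complex V has a catalytic head, F1, on a stalk, and a proton-conducting membrane part, Fo. The alpha and beta subunits of the head, which bind and form ATP, were level. Atp5a1 stood at 505, 467 and 566 bases per Mb in WT and 536, 539 and 480 in HdR replicates 1 to 3 (0.02 ± 0.18, SE, adjusted p = 0.943), and Atp5b at 637, 625 and 667 against 705, 765 and 637 (0.12 ± 0.18, adjusted p = 0.61). Both overlapped between genotypes, as did Atp5d. Under total scaling, which moved the median of all genes from -0.13 to -0.41, Atp5a1 was at -0.30 and Ndufv1 at -0.28, and 56 genes of the whole set were higher and 4 lower. Of the 5 head subunits, 2 were called higher, with a median of 0.12: Atp5c1, the central shaft (283, 336 and 288 against 440, 608 and 382; 0.63 ± 0.21, adjusted p = 0.0499), and Atp5e. Atp5e, the smallest, went from 153, 221 and 131 to 439, 777 and 342 (1.57 ± 0.31, adjusted p = 0.0133) and stayed called under both length measures (1.31 and 0.85), while Atp5c1 did not.

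The membrane and stalk subunits mostly rose: 9 of 11 were called higher, none lower, and the median was 0.92. Atp5j2 was at 237, 378 and 192 in WT and 622, 1084 and 538 in HdR replicates 1 to 3 (1.46 ± 0.32, adjusted p = 0.0159). Atp5k was at 97.4, 125 and 85.3 against 248, 383 and 206 (1.40 ± 0.25, adjusted p = 0.0103), and Atp5mpl at 100, 154 and 79.3 against 250, 390 and 237 (1.40 ± 0.28, adjusted p = 0.0131). In each of these, HdR replicate 2 was the highest library and the genotypes did not overlap. With the length trend removed, 5 stayed higher on either transcript measure: Atp5g1, Atp5j2, Atp5k, Atp5l and Atp5mpl.

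The 3 genes for the c-ring encode the same mature protein with different import signals, and they differed in size of change. Atp5g1 was at 111, 113 and 101 against 225, 270 and 142 (0.92 ± 0.23, adjusted p = 0.0229), Atp5g3 at 177, 193 and 163 against 315, 350 and 257 (0.78 ± 0.18, adjusted p = 0.0165), and Atp5g2 at 98.3, 120 and 97.1 against 143, 183 and 122, which was not called (0.49 ± 0.19, adjusted p = 0.0748). With the replicate block Atp5g2 was called (adjusted p = 0.0164). Per kb, Atp5g3 (248 in WT) and Atp5g2 (179) stood above Atp5g1 (40.5). Atp5f1, the peripheral stalk subunit b, was not called (0.40 ± 0.18, adjusted p = 0.106; 0.0233 with the replicate block). Atp5s, a coupling factor, was at 10.9, 14.4 and 11.5 against 17.6, 21 and 16.5 and missed the threshold (0.54 ± 0.18, adjusted p = 0.0501; 0.0165 with the block).

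Across the complexes, a chosen group of core subunits had smaller changes than the other subunits. Of 16 core subunits of complexes I, II, III and V grouped after the values were seen, 6 were called higher and 1 lower, with a median of 0.36. These were the 7 core subunits of complex I, Sdha, Sdhb, Cyc1, Uqcrfs1, Uqcrc1, Uqcrc2, Atp5a1, Atp5b and Atp5c1. Not all are catalytic or carry electrons: Uqcrc1 and Uqcrc2 are core proteins and Atp5c1 is the central shaft. Of the other 66 tested subunits, 56 were called higher and none lower, with a median of 1.05. This grouping carries no test. The 2 groups also differ in length, with medians of 1638 and 682 nt. With the trend on the principal transcript removed, the counts were 1 and 33 higher and the medians 0.06 and 0.49, so the order of the groups remained. Without WT replicate 1 they were 0 and 3 higher, with medians of 0.36 and 1.04.

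The change of a gene fell with transcript length, among these genes (Pearson r = -0.555, Spearman rho = -0.533, 102 genes) as over all tested genes (r = -0.516, rho = -0.545, 14901 genes); genes share libraries and are not independent replicates. Among transcripts of at most 600 nt, 84.6% of the 26 oxidative phosphorylation genes were higher against 62.2% of all such genes. From 600 to 1000 nt the shares were 93.8% and 52.1%, and from 1000 to 2000 nt 50.0% and 21.7%. Above 2000 nt they were 57.1% of 14 genes against 4.53%. These classes were set after the values were seen and carry no test.

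**Figure D4:**
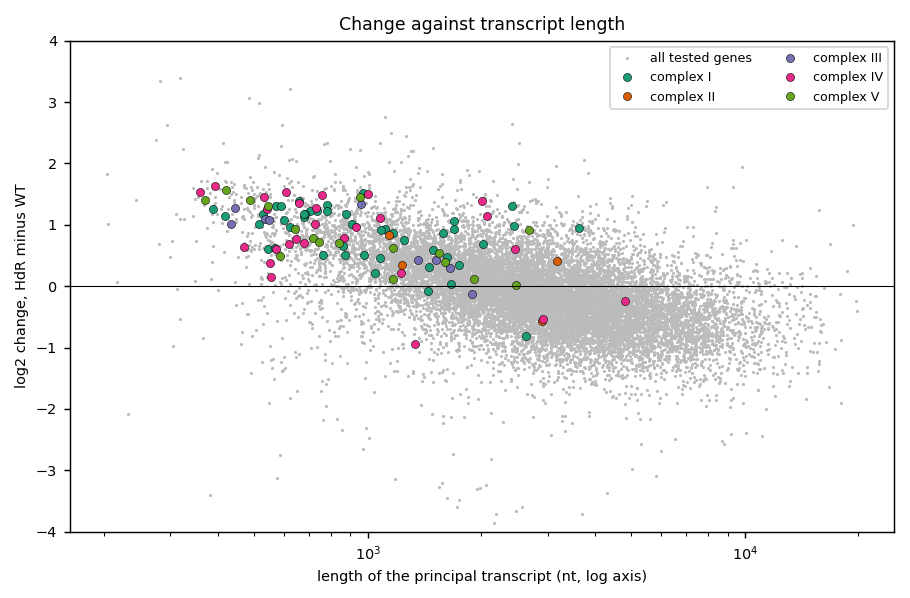
Change (HdR minus WT, log2) against the length of the principal transcript (nt, log axis) for all tested genes within the plotted range (grey) and the oxidative phosphorylation genes by complex (colours). Both fall with length (r = -0.555 for the oxidative phosphorylation genes and -0.516 for all), and most coloured points lie in the upper part of the grey cloud at their length.

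**Figure D5:**
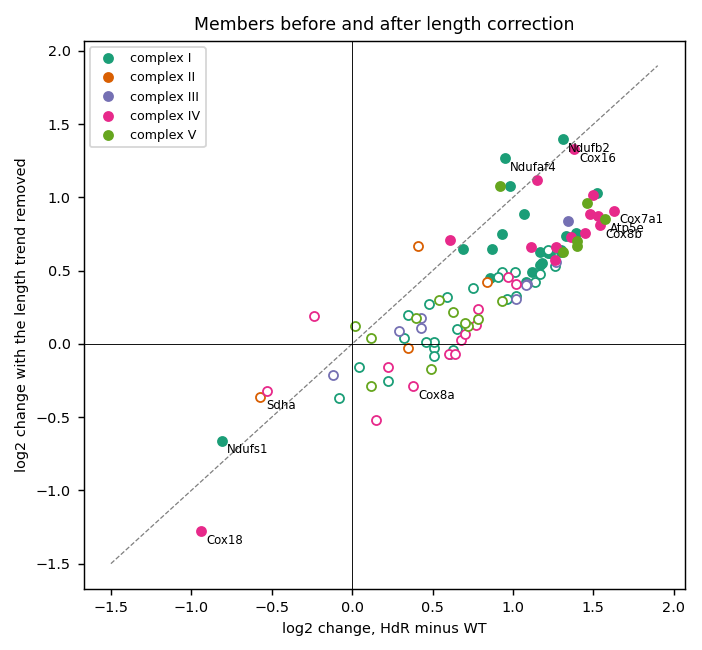
Change of each gene without (x axis) and with (y axis) the length trend on the principal transcript removed, both log2; filled points are called in both fits, and the dashed line marks equal values. Most genes lie below the line; Ndufaf4, Ndufb2, Ndufs1 and Sdha lie above it, and Cox18 is lowest on both axes (-0.94 and -1.28).

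Genes that work beside the complexes had smaller median changes. Of 36 further assembly factors, 14 were called higher and 1 lower, with a median of 0.46. On the longest and the principal transcript 9 and 8 were higher and 2 lower (medians 0.23 and 0.29), and with the replicate block 19 were higher and 3 lower. All 4 factors of complex II were among them, and Sdhaf1, which helps insert iron-sulfur clusters into SDHB, had the lowest p of this list (21.4, 27.3 and 18.5 to 55.2, 69.4 and 46.1 bases per Mb; 1.30 ± 0.21, adjusted p = 0.008). Cmc1, a factor for the COX1 subunit, rose by 1.05 ± 0.22 (adjusted p = 0.0147). Acad9, a complex I assembly factor that is also an acyl-CoA dehydrogenase, fell from 150, 131 and 188 to 95.9, 70.9 and 81.5 (-0.91 ± 0.19, adjusted p = 0.0142). Acad9 and Sdhaf1 stayed called under both length measures.

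Of 23 genes for cytochrome c, coenzyme Q and carriers, 4 were higher and none lower (median 0.11), and 2 were higher under either length measure. With the replicate block 5 were higher and 1 lower. Cycs, somatic cytochrome c, stood at 199, 303 and 161 in WT and 407, 615 and 373 in HdR (1.08 ± 0.28, adjusted p = 0.023) and stayed called under both length measures. Etfb, an electron transfer flavoprotein subunit (0.76 ± 0.17, adjusted p = 0.0174), and Vdac2, a pore of the outer membrane (0.59 ± 0.17, adjusted p = 0.0309), were also higher. Of 13 genes of the tricarboxylic acid cycle, none was higher and 1 was lower: Ogdh, a subunit of the 2-oxoglutarate dehydrogenase complex (-0.73 ± 0.20, adjusted p = 0.0298), which lost the call under both length measures. Idh3a, also of the cycle, was not called (0.32). With the replicate block, 2 genes of the cycle were lower.

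Of 18 regulators of mitochondrial gene expression, 1 was higher and 2 lower (median -0.06), and 2 were higher and 2 lower under either length measure and with the replicate block. Perm1, a muscle regulator of oxidative genes, went from 57.1, 30.2 and 73.5 to 20.6, 11.1 and 17.7 (-1.60 ± 0.33, adjusted p = 0.0142), and Gabpb2, a subunit of the ETS factor GABP, from 101, 81.8 and 114 to 44.9, 22.7 and 37.3 (-1.51 ± 0.25, adjusted p = 0.00881). Both stayed lower under both length measures. Nfe2l2, a regulator of the oxidative stress response, was higher (0.49 ± 0.15, adjusted p = 0.0344). Ppargc1a, the coactivator PGC-1alpha, was low and overlapped between genotypes (5.35 ± 1.69 and 4.65 ± 0.667, SD, n = 3; adjusted p = 0.669). The 13 mitochondrially encoded subunits were not analysed here.

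Summed markers of muscle and of fat cells were higher in HdR skin, though single genes differed in direction. The 19 skeletal muscle markers summed to 3813 to 5459 bases per Mb in WT and 7449 to 8690 in HdR. Of these, 8 were called higher and none lower, with a median change of 0.14. Under either length measure 4 were higher, and with the replicate block 8 were higher and 4 lower. They divided by gene: Ckm, muscle creatine kinase, rose (426, 384 and 399 to 787, 1167 and 623), while Ttn, the giant sarcomere protein titin, stood at 148, 52.4 and 247 against 69.1, 54.1 and 72.9 and was not called (it was lower with the replicate block, adjusted p = 0.0357). The 11 adipocyte markers summed to 958 to 1001 in WT and 2666 to 3668 in HdR, and 7 were higher with and without the length correction. With the replicate block 7 adipocyte markers were higher and 1 lower. Of the 6 markers of brown and beige adipocytes, which summed to 490 to 574 in WT and 663 to 881 in HdR, 5 were tested: 1 was higher and 1 lower (median -0.20), and none was called under either length measure. Ucp1, which defines brown fat, did not exceed 0.421 in any library.

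Immune markers were also higher. The 12 markers of macrophages and monocytes summed to 1021 to 2051 in WT and 3038 to 3365 in HdR, with 7 called higher. Of these 12, 6 were higher under either length measure, 1 was lower on the principal transcript, and 9 were higher with the replicate block. The 12 neutrophil markers summed to 146 to 201 and 703 to 3192, with HdR replicate 2 highest. Of the 7 tested, 5 were called higher, as under either length measure and with the block. The 15 hair follicle markers fell, from 633 to 955 to 39.1 to 154, with 14 lower. Basal keratinocyte markers summed to 6356 to 7381 in WT and 4587 to 5362 in HdR, with 2 of 8 lower, against 4 with the replicate block. Fibroblast (5414 to 7639 and 5712 to 7136), smooth muscle (369 to 429 and 300 to 375), endothelial (146 to 160 and 88.7 to 133) and red blood cell markers (283 to 532 and 627 to 867) had 2, 1 and 3 genes lower and, for red blood cells, 2 higher. With the replicate block 4, 2 and 5 were lower, and 1 fibroblast marker was higher. With the trend on the principal transcript removed, 1 fibroblast, 1 smooth muscle and no endothelial marker was lower. In that fit 1 fibroblast marker and no red blood cell marker was higher. Of the basal keratinocyte markers, 1 was higher and 1 lower under either length measure. No marker of these lists was at 0 in every library. The part of these cell types in the change of the oxidative phosphorylation genes was not tested.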

How the data were processed

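Ear skin RNA of 3 WT and 3 HdR libraries was analysed. The authors deposited a coverage signal (aligned bases added up for each of 23518 symbols, 6 columns). The submitters' processing notes name GRCm38; for the aligner, annotation and use of strand no statement is given in the sources used here. Total coverage was 4433 to 5966 Mb per library, and the SE of a change reflects the spread between libraries, not coverage alone. The values are not read counts, so no count model was used.

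Scaling to bases per Mb used trimmed means of M values (trims of 30% on ratio and 5% on intensity). A filter of 1 base per Mb, reached in 3 or more libraries, left 15049 genes for robust limma-trend (limma 3.58.1 in R 4.3.3) on log2 values with a pseudocount of 1, two-sided, with no covariate, Benjamini-Hochberg adjustment over all tested genes and a threshold of 0.05. The scripts were tested on simulated data. A log2 change with a pseudocount understates the change of low genes.

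For the length correction, a natural spline (4 df) on log2 transcript length was fitted to each library's deviation from the gene means and subtracted. Lengths and coordinates came from GENCODE M21 (GRCm38), which gave a length to 99.0% of tested genes. The correction was first run with each library's mean kept and was replaced by subtraction of the whole fit, to match the processing already described for these data, after the members' counts had been seen; the form kept calls more genes higher, and both are reported. Likewise, libraries were first left out with the scaling of 6 libraries and a filter in 2, and then with scaling and filter on the remaining 5.

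Replicate numbers are shared by the genotypes. After removal of genotype means, libraries of the same number correlated at 0.163, 0.416 and 0.366, and those of different numbers at -0.377 to 0.159. The numbers were therefore taken as pairing the samples. The pairing comes from the data, since the labels do not state it. It is not distinct for number 1, as WT replicate 1 correlated with HdR replicate 3 at 0.159. Deviations from a genotype mean constrain one another, so these correlations are not independent. The block was thus chosen on the same values that it was then used to test. With it, 18.3% of all tested genes were called higher and 27.2% lower, against 12.7% and 17.9% without it. Whether the choice raised the number of calls was not tested. Calls made only with the replicate block rest on this pairing.

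The members, their grouping and all gene lists were chosen with earlier results of these data known. Named genes are, per group, up to 3 called genes without overlap and with the largest change and the tested gene with the smallest change; all complex II subunits, Cyc1, Uqcrfs1, isoform pairs and c-ring genes; and, from each other pathway list, its 3 genes of lowest p. Some genes that meet this rule are not reported here, and others were named after their values were seen. Alternatives were other scalings, filters and pseudocounts, sample weights, the replicate block, a threshold of 0.1 and each library left out.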

Additional observations from a re-analysis of the deposited data

How the results depend on the processing

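The higher median change of the oxidative phosphorylation genes kept its direction under every alternative run, from 0.31 to 1.04, while the number of genes called did not. Against 75 genes higher, 47 were higher with the length trend removed on the longest transcript, 41 on the principal transcript, 38 and 32 where each library's mean was kept, 48 with that form and the replicate block, and 45 without a filter (more genes tested). The median was 0.47 (longest, with or without the block), 0.42 (principal, likewise), 0.36 (mean kept on the longest, likewise), 0.31 (mean kept, principal), 0.55 (mean kept, median coding length) and 0.60 under total scaling. Of the 82 tested subunits, 62 were higher without correction, against 41, 34, 32 and 26 under those 4 length corrections, 41 with the mean kept and the block, and 35 without a filter. On the median coding length 61 genes were higher. Genes called lower numbered 2, against 4 under total scaling, with the mean kept on the longest transcript, with the replicate block, with the block and the correction on the longest transcript (2 on the principal), and at a threshold of 0.1, 3 with the mean kept on the principal transcript, 5 with sample weights, whose estimation did not fully converge, 6 with the mean kept on the longest transcript and the block, and 1 without a filter; assembly factors called lower numbered 2 under total scaling, the block, the mean kept with the block, sample weights and the threshold of 0.1, against 1. Leaving out a library in turn, over its 3 forms, gave 1 to 78 genes higher, 0 to 5 lower, 0 to 64 subunits higher, 0 to 1 assembly factors lower and a median of 0.40 to 1.04; with the length trend also removed, 1, 52 and 6 genes were higher without WT replicates 1, 2 and 3 and 20, 16 and 36 without HdR replicates 1, 2 and 3. With scaling on 6 libraries the counts were 8, 78, 27, 56, 45 and 73 in the same order, against 4, 78, 37, 54, 45 and 73 with scaling on 5. The calls over all genes, 1904 higher and 2701 lower, became 917 and 4305 under total scaling (median of all genes -0.41 against -0.13) and 2311 and 2092 under quantile normalisation (-0.02); less the median of all genes, the median of the oxidative phosphorylation genes was 1.04, 1.01 and 0.81. Without WT replicate 1, 40 of the genes followed singly (52 members and 12 others) lost their call, against 20 each without WT replicate 3 and HdR replicate 2. The replicate block took the call from none of them and gave it to 9. Each leave-out leaves a genotype with 2 libraries, and the cause of the lost calls was not tested.

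Among the genes followed singly, some changes turned sign. None of these was called in the fit that turned it except Cox6b2 with the mean kept. There Cox6b2 was called lower on the longest (with and without the block) and the principal transcript. Members not followed singly also turned sign and are not listed in full. Of those called without correction, Ndufb3 went to -0.07 (longest) and -0.08 (principal), and Ndufs6 and Cox20 to -0.04 and -0.07 (principal). The replicate block gives the same change as the fit without it. After removal of the length trend on the longest, then the principal transcript, then with the mean kept on each, Cox8a was at -0.26, -0.29, -0.37 and -0.40, Cox6b2 at -0.48, -0.52, -0.59 and -0.63, Cox11 at -0.20, -0.16, -0.30 and -0.27, Ndufv1 at -0.23, -0.16, -0.34 and -0.26, Atp5g2 at -0.09, -0.17, -0.20 and -0.28, Sdhd at -0.07, -0.03, -0.17 and -0.14, and Cox6a1 at -0.03, -0.07, -0.13 and -0.18. Ndufaf1 was at -0.01 on the longest transcript and at -0.11 and -0.07 with the mean kept; Ndufs7 at -0.03 on the principal transcript and at -0.10 and -0.13 with the mean kept. With the mean kept, Cox6b1 was at -0.05 and -0.07, Cox6a2 at -0.01 and -0.03, and Uqcrfs1 and Atp5a1 at -0.05 on the longest. On the median coding length, Ndufv1 was at -0.03 and Cox6b2 at -0.22, and with the mean kept Ndufv1 at -0.13, Cox6b2 at -0.32, Cox11 at -0.07 and Cox8a at -0.05. Under total scaling Ndufv1 was at -0.28, Atp5a1 at -0.30, Cox11 at -0.08 and Cox6b2 at -0.07, and under quantile normalisation Atp5a1 at -0.41. Over all fits with a library left out the ranges were -0.10 to 0.61 for Ndufs7, -0.39 to 0.13 for Ndufv1, -0.07 to 0.37 for Ndufaf1, -0.17 to 0.43 for Sdhd, -0.44 to 0.47 for Cox8a, -0.55 to 0.30 for Cox6b2, -0.28 to 0.25 for Cox11, -0.05 to 0.14 for Atp5a1, -0.00 to 0.48 for Uqcrfs1, -0.09 to 0.74 for Cox6a1, -0.44 to 0.95 for Cox6a2, -0.05 to 0.83 for Cox6b1 and -0.13 to 0.63 for Atp5g2.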
